A study of Homo sapiens with 12 samples.

Results

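Integrin alpha chains are the larger subunits of the integrins, the receptors by which cells hold on to the extracellular matrix. The 10 chains described here are ITGA1, ITGA2, ITGA3, ITGA4, ITGA5, ITGA6, ITGA7, ITGA10, ITGA11 and ITGAV, taken by their symbols from the 60234 genes of a raw count table. Each symbol had 1 row in the table. They were measured in cultured MDA-MB-231, a human cell line established from a triple-negative breast cancer. Fast cells were a subpopulation picked out for its trajectory during migration. Parental cells were the same line before any capture. No other treatment or allele is named for either population, and both derive from this 1 line. The labels give 2 batches, with 3 fast and 3 parental libraries in each, so that 12 libraries of total RNA were sequenced. The series counts 3 technical replicates in each batch and speaks of 2 biological replicates, without saying whether these are the batches or the populations. No source ties the libraries of a batch to separate captures or cultures. The p-values below therefore measure the spread between libraries alone, which may be technical.

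An integrin is made of 1 alpha and 1 beta chain, and the alpha chain largely sets which ligand is bound. Background knowledge sorts the chains by ligand: ITGA1, ITGA2, ITGA10 and ITGA11 bind collagens, ITGA3, ITGA6 and ITGA7 bind laminins, and ITGA5 and ITGAV bind proteins that carry the tripeptide motif Arg-Gly-Asp, such as fibronectin and vitronectin. ITGA4 binds fibronectin and the vascular adhesion molecule VCAM1. Most of these chains pair with ITGB1 alone, whereas ITGA6 also pairs with ITGB4 and ITGAV with several beta chains. In breast epithelium and in tumors derived from it, these receptors anchor cells to the basement membrane and to the stroma and transmit force during migration.

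The libraries held 53267145 to 75944907 counts, so that 1 CPM (a gene's counts scaled to a common, TMM-adjusted library total) stood for at least 51.9 counts in a library. Among markers of the line, the mesenchymal filament protein VIM averaged 6912 CPM in fast cells and 5049.7 CPM in parental cells, and CDH1, the epithelial cadherin, had 8 counts over the fast libraries and 3 over the parental ones. ESR1, the estrogen receptor, averaged 0.139 CPM in fast cells and 0.139 CPM in parental cells. The progesterone receptor PGR rose, with 2.05 CPM in fast cells against 0.477 CPM in parental cells (edgeR adjusted p = 6.20e-14). ERBB2, which encodes HER2, had 59.0 CPM in fast cells, against 62.4 CPM in parental ones. The leukocyte marker PTPRC had 7 counts over the fast libraries and 5 over the parental ones. Of 5 fibroblast markers, DCN and LUM had 0 counts in all 12 libraries, and COL1A1, the 1 tested, fell to 9.32 CPM in fast cells against 14.2 CPM in parental cells. Of 4 platelet markers, GP9 had 0 counts, ITGA2B was not called, and GP1BA fell to 0.493 CPM in fast cells against 1.10 CPM in parental cells. Of 5 endothelial markers, 3 were tested over both batches: KDR rose, with 10.8 CPM in fast cells against 8.60 CPM in parental cells, while TIE1 fell to 2.85 against 7.37 CPM. VWF, with 32 counts over the fast libraries and 72 over the parental ones, fell to 0.0838 against 0.182 CPM (edgeR adjusted p = 0.0387 over both batches). VWF was not called in either batch alone. The part of these markers in the results below was not tested. In bulk RNA, fewer cells of a type and less RNA per cell cannot be told apart.

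Of the 10 chains, 8 passed the filter on low counts and were tested, and ITGA4 and ITGA11 did not pass. In batch 1, 6 of the 8 were higher in fast cells and 2 were lower by edgeR's quasi-likelihood test at a Benjamini-Hochberg adjusted p under 0.05. Of all 22668 genes tested, 56.1% were called in batch 1, with 29% of all genes higher and 27.1% lower. In batch 2, 6 chains were higher, 1 was lower and 1 was not called, where 56% of all genes were called, 27.4% higher and 28.6% lower. Over both batches, with batch as a term in the model, 6 were higher and 2 lower, where 63.4% of all genes were called, 31.9% higher and 31.5% lower. Calls were thus frequent across the genome, and a call by itself does not set these chains apart. The chains that were higher were ITGA1, ITGA2, ITGA3, ITGA5, ITGA6 and ITGAV, and those that were lower were ITGA10 and ITGA7. The median log2 fold change of the 8 tested chains was 0.21 in batch 1, 0.33 in batch 2 and 0.28 over both, beside medians of 0.02, -0.01 and 0.01 over all genes tested. Of the 8, 6 were called higher in both batches separately, as were 23% of all genes, and 1, ITGA10, was called lower in both, as were 23% of all genes. Log2 fold changes are given as fast over parental, each ± its standard error (SE). The SE was computed from the log2 fold change and the F statistic of edgeR's test, not estimated directly.

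**Figure D1:**
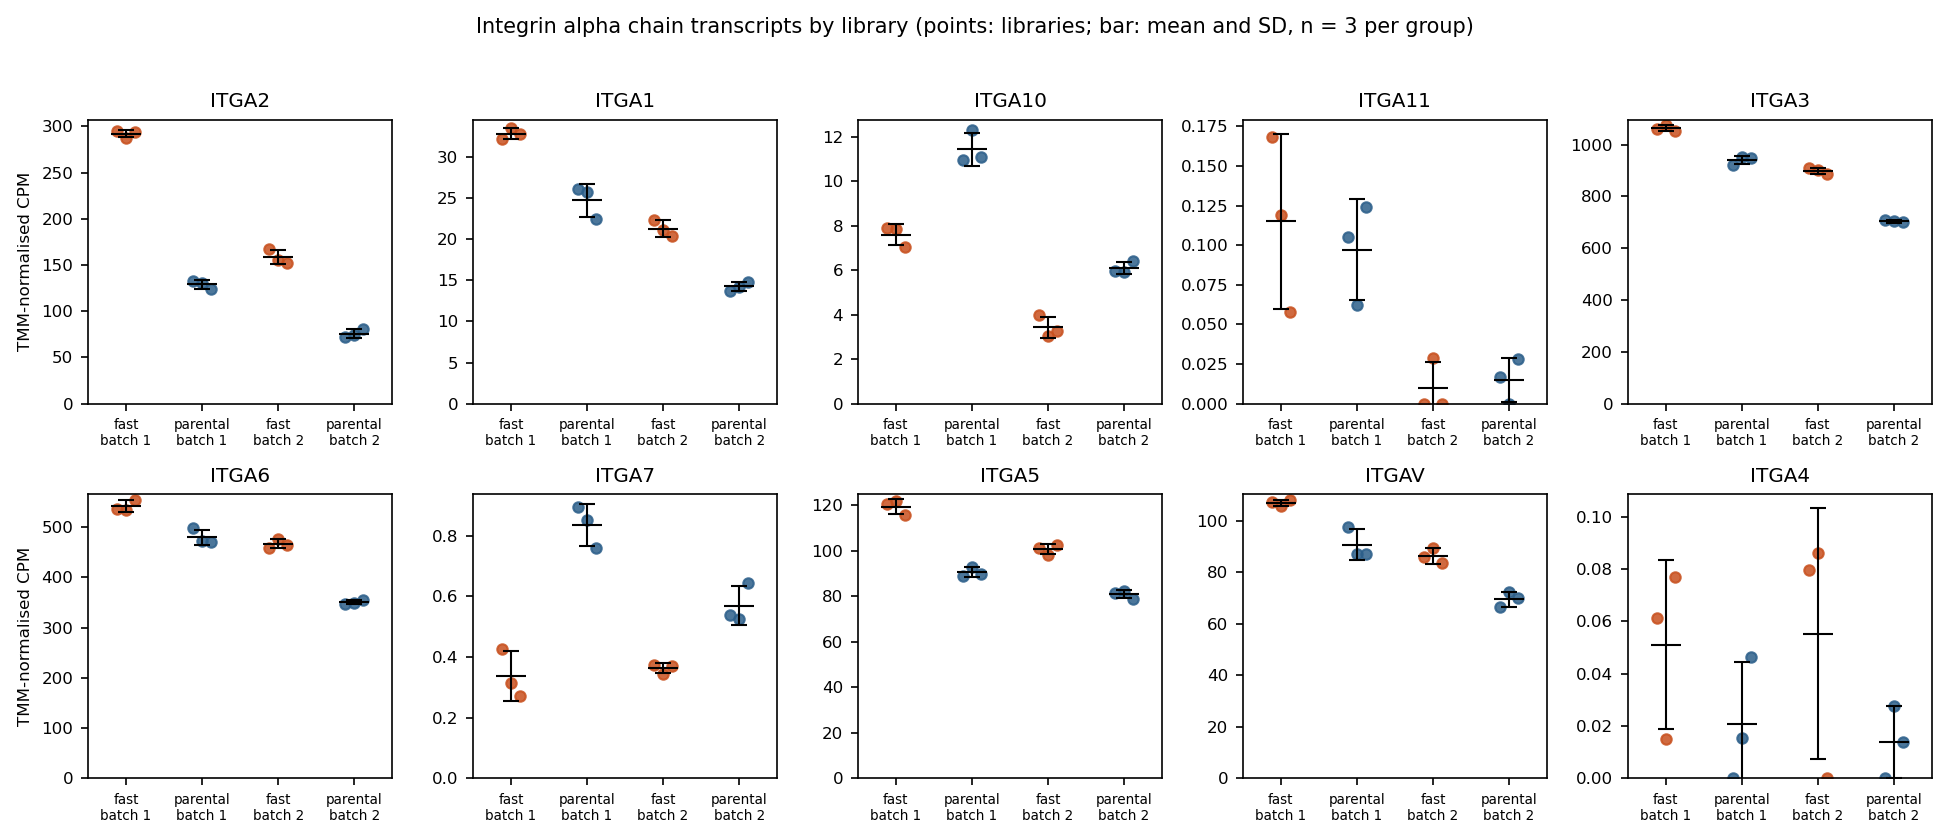
TMM-normalised CPM of each alpha chain in every library, with 1 panel per gene for all 10; the horizontal positions are the 4 groups (fast and parental cells of each batch), each point is 1 library, and bars are the mean and SD of 3 libraries. ITGA2 stands clearly higher in the fast libraries of both batches, ITGA10 and ITGA7 stand lower, and batch 2 lies below batch 1 for most genes.

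Among the collagen-binding chains, ITGA2 (ENSG00000164171, chromosome 5) had the largest rise of the 8 tested chains. ITGA2 pairs with ITGB1 to form a main epithelial receptor for fibrillar collagen. In batch 1 it had 295, 287 and 294 CPM in fast cells, against 133, 130.1 and 124 CPM in parental cells. Batch 2 gave 167, 156 and 152 CPM in fast cells, against 72.6, 73.9 and 80.9 CPM in parental cells. Every fast library of a batch lay above every parental library of that batch by a wide gap, and all 6 fast libraries lay above all 6 parental libraries. The log2 fold change was 1.18 ± 0.04 in batch 1 (edgeR adjusted p = 6.58e-28) and 1.06 ± 0.04 in batch 2 (edgeR adjusted p = 6.22e-26), a rise of 2.26-fold and 2.09-fold. ITGA2 was the only one of the 8 tested chains to be called with a rise of 2-fold or more over both batches, as were 3.98% of all genes tested.

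Along chromosome 5, 1 protein-coding gene, PELO, starts between the starts of ITGA1 and ITGA2, and its exons overlap those of ITGA1 in part. ITGA1, the other collagen receptor chain on that chromosome, also rose, by less. It had 32.2, 33.6 and 32.9 CPM in fast cells, against 26.1, 25.7 and 22.5 CPM in parental cells in batch 1. The batch 2 libraries had 22.4, 21.1 and 20.4 CPM in fast cells, against 13.7, 14.2 and 14.8 CPM in parental cells. Fast libraries lay above parental libraries within each batch, yet over the batches the groups overlapped, with every fast library of batch 2 below every parental library of batch 1. ITGA1 rose by 0.41 ± 0.06 in batch 1 and 0.58 ± 0.06 in batch 2 on the log2 scale (edgeR adjusted p = 5.73e-08 and 4.24e-11). Without a batch term its call over both batches was lost (edgeR adjusted p = 0.0832). A stretch of 475 bases of ITGA1's exons, 2.56% of their length, is shared with PELO on the same strand, so that some reads of these 2 genes cannot be told apart.

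ITGA10, a collagen receptor chain best known from cartilage, went the other way. It had 7.89, 7.84 and 7.04 CPM in fast cells, against 10.9, 12.3 and 11.1 CPM in parental cells in batch 1. Levels in batch 2 were 3.97, 3.06 and 3.25 CPM in fast cells, against 5.95, 5.93 and 6.41 CPM in parental cells. All fast libraries of a batch lay below all parental libraries of that batch. The log2 fold change of ITGA10 was -0.59 ± 0.09 in batch 1 and -0.83 ± 0.10 in batch 2 (edgeR adjusted p = 6.43e-07 and 3.21e-09), and, as for ITGA1, its call over both batches was lost without a batch term (edgeR adjusted p = 0.0832). ITGA11, the collagen receptor chain of fibroblasts, was at the limit of detection. It had 11, 8 and 3 counts in the fast libraries of batch 1, against 6, 4 and 8 counts in parental ones, and 0, 2 and 0 counts in the fast libraries of batch 2, against 1, 0 and 2 in parental ones. The groups overlapped in both batches. The ratio of normalised totals was 1.12 (95% Poisson interval 0.598 to 2.12), and edgeR run without the filter gave an adjusted p of 0.999 over both batches.

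The promoters of the 3 collagen-binding chains that changed are shown because ITGA1 and ITGA2, close together on chromosome 5, rose in both batches while ITGA10 fell. Each is the window from 250 bases before to 50 after the start of the gene, from RefSeq on GRCh38.p14, written 5′ to 3′ on the strand of the gene. Capitals mark matches on either strand to 1 of 5 motifs: the GC box GGGCGG bound by SP-family factors, the AP-1 motif TGANTCA, the TATA motif TATAAA, the E-box CAGGTG and the TEAD motif GGAATG, none of which contains another. ITGA2 lies at chr5:52989102-52989401 (plus strand), ITGA1 at chr5:52787666-52787965 (plus strand) and ITGA10 at chr1:145910001-145910300 (minus strand).
ITGA2: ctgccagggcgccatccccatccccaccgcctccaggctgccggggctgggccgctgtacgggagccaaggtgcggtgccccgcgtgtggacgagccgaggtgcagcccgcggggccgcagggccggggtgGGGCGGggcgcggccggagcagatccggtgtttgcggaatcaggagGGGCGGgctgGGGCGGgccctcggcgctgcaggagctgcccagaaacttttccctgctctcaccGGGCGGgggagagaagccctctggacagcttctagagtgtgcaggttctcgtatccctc
ITGA1: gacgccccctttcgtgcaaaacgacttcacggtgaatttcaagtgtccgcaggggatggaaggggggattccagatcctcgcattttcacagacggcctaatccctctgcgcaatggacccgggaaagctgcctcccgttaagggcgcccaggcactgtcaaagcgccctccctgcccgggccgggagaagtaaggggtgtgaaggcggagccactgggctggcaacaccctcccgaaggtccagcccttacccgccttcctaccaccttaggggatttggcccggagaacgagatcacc
ITGA10: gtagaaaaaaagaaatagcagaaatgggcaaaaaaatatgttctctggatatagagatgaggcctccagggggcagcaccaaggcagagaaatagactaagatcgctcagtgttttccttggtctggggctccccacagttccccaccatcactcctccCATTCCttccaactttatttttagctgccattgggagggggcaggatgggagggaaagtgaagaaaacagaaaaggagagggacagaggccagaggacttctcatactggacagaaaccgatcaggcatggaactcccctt

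The ITGA2 window held 4 GC boxes and was 72.7% G or C. The ITGA1 window held none of the 5 motifs and was 61.7% G or C, and the ITGA10 window held 1 TEAD motif and was 48.7% G or C. The median G or C content of the 35116 promoter windows in the RefSeq table was 58.7%. Of those windows, 45% held a GC box, 7.71% an AP-1 motif, 11.5% a TATA motif, 20.6% an E-box and 14% a TEAD motif. The table held 10 windows for 8 of the chains and no entry for ITGA3 or ITGA7. ITGA5, at chr12:54419217-54419516 (minus strand), had 1 GC box, 1 AP-1 motif and 1 TEAD motif. Of the pair of ITGA6 windows, the one at chr2:172427086-172427385 had 1 GC box, 1 TATA motif and 2 E-boxes, and the one at chr2:172427336-172427635 had 3 GC boxes (both plus strand). These windows overlap, and the GC box of the former is also 1 of the 3 in the latter. ITGA11 had 1 E-box, and ITGA4 and both ITGAV windows had none of the 5. These are matches of letters, and no binding was measured.

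Among the laminin-binding chains, ITGA3 and ITGA6 were the most abundant of the 10, and both rose slightly. ITGA3 pairs with ITGB1 to form a receptor of laminins of the epithelial basement membrane. It had 1058, 1077 and 1054 CPM in fast cells, against 923, 951 and 947 CPM in parental cells in batch 1. Batch 2 gave 909.8, 902 and 887 CPM in fast cells, against 710.4, 703 and 699 CPM in parental cells. Fast and parental libraries did not overlap within either batch, and the separation was wider in batch 2. ITGA3 rose by 0.18 ± 0.03 in batch 1 and 0.35 ± 0.03 in batch 2 on the log2 scale (edgeR adjusted p = 5.75e-07 and 9.69e-15), or 1.13-fold and 1.28-fold.

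ITGA6, which forms laminin receptors with ITGB1 and, at hemidesmosomes, with ITGB4, showed the same order. It had 536, 535 and 555 CPM in fast cells, against 498, 472 and 470.2 CPM in parental cells in batch 1. The batch 2 libraries had 459, 477 and 465 CPM in fast cells, against 348, 349 and 356 CPM in parental cells. Here too the libraries of each batch separated, with the smaller gap in batch 1. ITGA6 rose by 0.18 ± 0.03 in batch 1 and 0.41 ± 0.03 in batch 2 on the log2 scale (edgeR adjusted p = 2.85e-06 and 8.02e-16). Exons of 3 antisense genes overlap those of ITGA6, the longest overlap taking 2.66% of its exon length, and the strand setting of the counting is not stated.

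ITGA7, the laminin receptor chain of muscle, was low. It had 28, 21 and 14 counts in fast libraries of batch 1, against 51, 55 and 49 counts in parental libraries. In batch 2 it had 28, 24 and 25 counts in fast libraries, against 32, 38 and 46 counts in parental libraries. In CPM, all 6 fast libraries of ITGA7 lay below all 6 parental ones. The log2 fold change of ITGA7 was -1.29 ± 0.32 in batch 1 (edgeR adjusted p = 0.000499) and -0.65 ± 0.32 in batch 2, where it was not called (edgeR adjusted p = 0.0775, unadjusted p = 0.0457). Over both batches it was -0.97 ± 0.22 (edgeR adjusted p = 0.000269).

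Both Arg-Gly-Asp-binding chains rose. ITGA5, which with ITGB1 forms the classical fibronectin receptor, had 121, 122 and 116 CPM in fast cells, against 88.9, 93.0 and 89.6 CPM in parental cells in batch 1. Levels in batch 2 were 101, 98.3 and 103 CPM in fast cells, against 81.4, 82.3 and 79.0 CPM in parental cells. All 6 fast libraries lay above all 6 parental libraries. ITGA5 rose by 0.40 ± 0.04 in batch 1 and 0.32 ± 0.04 in batch 2 on the log2 scale (edgeR adjusted p = 2.36e-13 and 2.06e-10). ITGAV, the chain of the vitronectin receptors, had 107, 106 and 108 CPM in fast cells, against 97.5, 86.9 and 87.2 CPM in parental cells in batch 1. In batch 2 it had 85.8, 89.4 and 83.6 CPM in fast cells, against 66.3, 72.1 and 70.1 CPM in parental cells. Its libraries separated within each batch and overlapped between the batches. ITGAV rose by 0.24 ± 0.04 in batch 1 and 0.31 ± 0.04 in batch 2 on the log2 scale (edgeR adjusted p = 1.91e-06 and 1.02e-08).

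ITGA4, the chain of the leukocyte receptor for VCAM1 and fibronectin, had 4, 1 and 4 counts in fast libraries of batch 1, against 0, 1 and 3 in parental libraries. In batch 2 it had 6, 6 and 0 counts in fast libraries, against 0, 2 and 1 in parental ones. The libraries overlapped in both batches. Summed, ITGA4 had 21 counts in fast cells and 7 in parental cells, a ratio of normalised totals of 2.94 (95% Poisson interval 1.21 to 8.20). The edgeR fit without the filter did not call it over both batches (adjusted p = 0.262). Among genes with 1 to 10 counts, 64.1% to 67.5% of counts in batch 1 libraries and 70.3% to 71.8% in batch 2 libraries were even, and if both reads of a pair were counted, which was not tested, these intervals are too narrow.

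**Figure D2:**
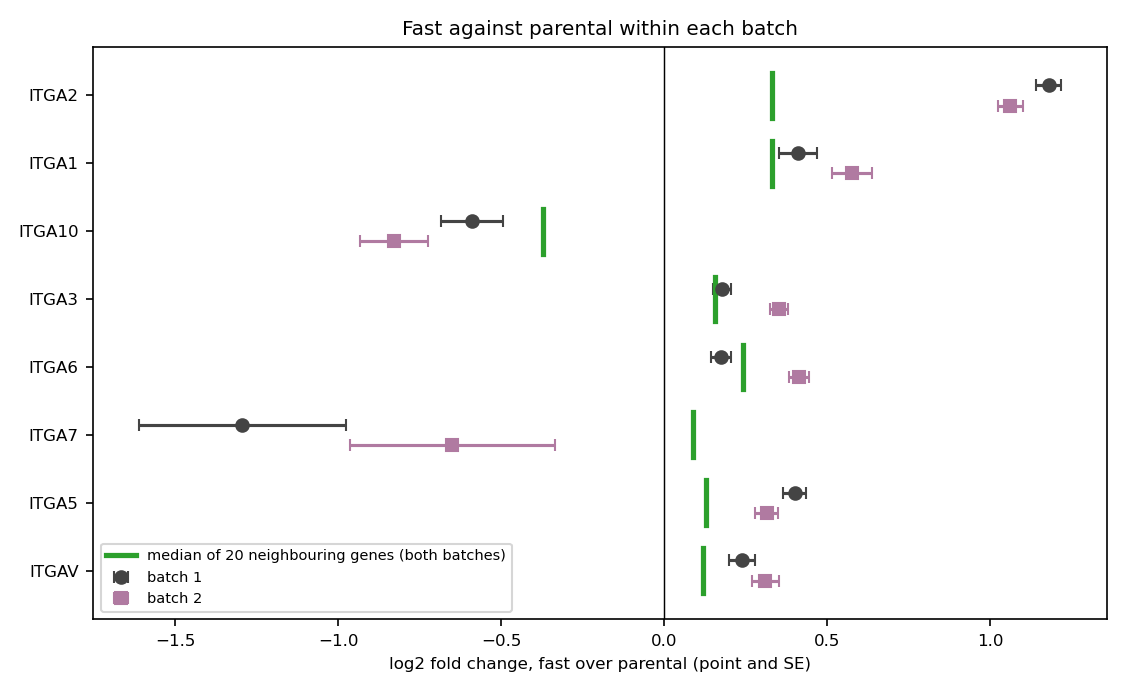
Log2 fold change of each tested alpha chain, fast over parental, in batch 1 and in batch 2; points are edgeR estimates, thin bars are 1 standard error, and vertical green bars are the median log2 fold change over both batches of the 20 nearest tested genes. ITGA2 lies above 1 in both batches, 5 chains lie between 0.18 and 0.58, and ITGA10 and ITGA7 lie below 0, ITGA7 with the widest error bars.

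Whether the change differed between batches was tested by an interaction contrast, batch 2 minus batch 1. Of the 8 tested chains, 2 were called, both with a larger rise in batch 2, where 5.4% of all genes were called, 1.75% higher and 3.65% lower. That split over all genes, 396 higher and 827 lower, became 575 and 522 with RLE size factors and 582 and 549 with library totals. The called chains were the laminin receptors ITGA3, with a difference of 0.18 ± 0.04 (edgeR adjusted p = 0.00342), and ITGA6, with 0.24 ± 0.04 (edgeR adjusted p = 0.000201). For ITGA2 the difference was -0.12 ± 0.05 (edgeR adjusted p = 0.230), and for the other 5 the adjusted p ran from 0.298 to 0.587. These misses do not show that the change of those chains was equal in both batches.

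The batches also differed in level within each population. In parental cells, all 8 tested chains were lower in every batch 2 library than in every batch 1 library, as were 20.1% of all genes tested. In fast cells 7 of the 8 were, ITGA7 being the exception, beside 23.2% of all genes. Among the tested chains, the ratio of batch 2 to batch 1 was lowest for ITGA10, at 0.451 in fast cells and 0.533 in parental cells. It was 0.542 and 0.588 for ITGA2 in the same order, and 0.846 and 0.749 for ITGA3. Pooling the batches therefore left 5 of the 8 chains with overlapping libraries, and only ITGA2, ITGA5 and ITGA7 separated over all 12. Of all genes, 18.8% had every fast library above every parental one and 19.6% had every one below.

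Within a batch, the libraries of the 8 tested chains did not overlap between populations, 6 above and 2 below in each batch. Among all genes, fast libraries lay wholly above in 31.4% and wholly below in 29% in batch 1, and in 30% and 31.2% in batch 2. The median absolute log2 fold change over all genes was 0.34 in each batch, larger than the change of ITGA3, ITGA6 and ITGAV in batch 1 and of ITGA5 and ITGAV in batch 2. ITGA2, ITGA1, ITGA10 and ITGA7 exceeded it in both batches. With only genes averaging at least 1 CPM kept, the median was 0.29 in batch 1 and 0.28 in batch 2. Under that filter ITGA5 in batch 2 lay above the median, at 0.31, and ITGA3, ITGA6 and ITGAV in batch 1 stayed below it.

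Levels of different chains were compared per length, as CPM per kb of the joined exons of each gene. On that scale, ITGA3 came first in every group, with 108 in fast and 95.9 in parental cells of batch 1, and 91.8 and 71.8 in those of batch 2. ITGA6 followed with 83.0 in fast and 73.5 in parental cells of batch 1, and 71.5 and 53.7 in those of batch 2. The laminin receptors thus made up the larger part of the transcripts of the 10 chains throughout. ITGA2 came next in all groups except the parental cells of batch 2. There it stood at 9.58 CPM per kb, below ITGA5 at 10.7, while fast cells of the same batch had 20.02 for ITGA2 and 13.3 for ITGA5.

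The collagen receptor chains ITGA1 and ITGA10 changed places between the populations. In fast cells, ITGA1 lay above ITGA10 at 1.77 against 1.201 CPM per kb in batch 1, and 1.15 against 0.542 in batch 2. In parental cells it lay below, at 1.33 against 1.81 in batch 1 and 0.768 against 0.965 in batch 2. The libraries of these chains did not overlap in any of the 4 groups. The order rests on the length used, since in plain CPM ITGA1 was above ITGA10 throughout. Between other neighbours in the order, the libraries of ITGA5 and ITGAV overlapped in parental cells of batch 1, and those of ITGA4 and ITGA11, the lowest chains, overlapped in every group. ITGA7 was the lowest tested chain, at 0.0529 in fast and 0.131 in parental cells of batch 1.

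**Figure D3:**
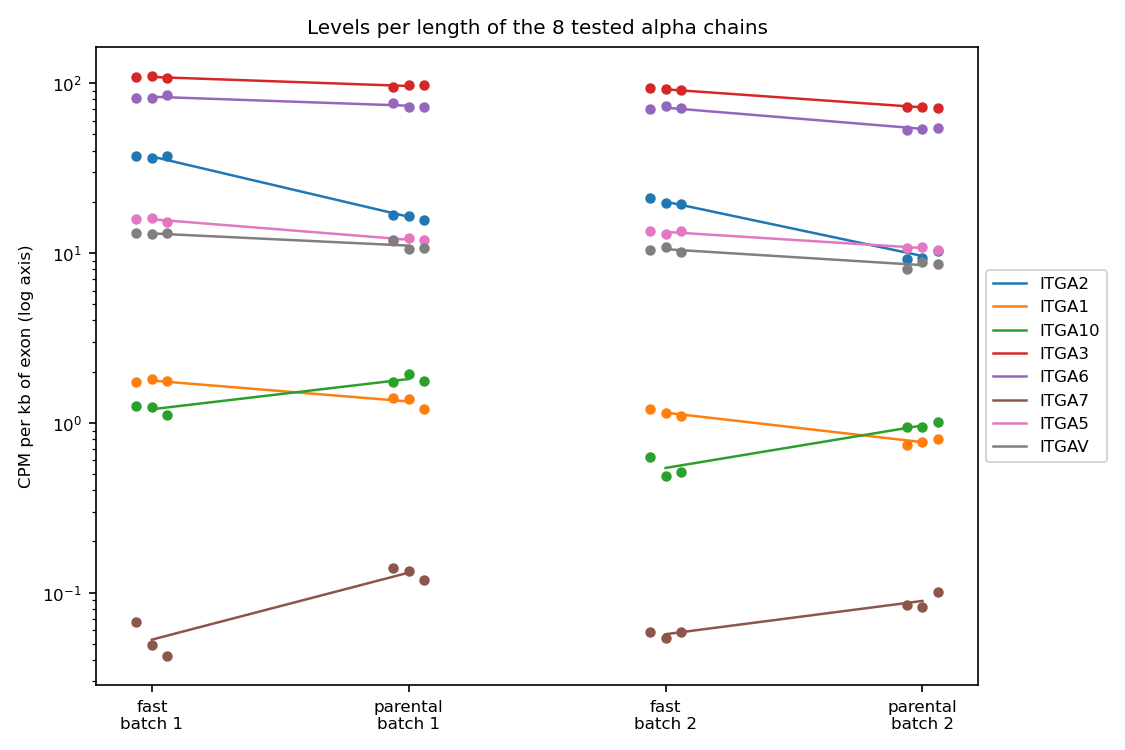
Level of each tested alpha chain per length (CPM per kb of exon, logarithmic axis) in the 4 groups; points are libraries, and lines join the means of fast and parental cells of a batch. ITGA3 and ITGA6 are highest in every group, and ITGA1 lies above ITGA10 in fast cells and below it in parental cells.

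The levels per length of the 10 chains were summed in each library, leaving out other alpha chains such as ITGAE. Of this sum, ITGA2 took 11.9% ± 2.54 in fast cells and 6.91% ± 0.885 in parental cells (SD, n = 6 libraries each). ITGA10 took 0.361% ± 0.115 in fast and 0.736% ± 0.135 in parental cells. The larger chains moved by less, with ITGA3 at 42.8% ± 1.29 in fast and 45.6% ± 0.898 in parental cells and ITGA6 at 33.1% ± 1.405 and 34.5% ± 0.562, the shares of ITGA6 overlapping in batch 2. ITGA5, at 6.21% ± 0.235 in fast and 6.24% ± 0.676 in parental cells, differed in opposite directions in the batches: its share was 6.06% ± 0.179 in fast and 5.64% ± 0.154 in parental cells of batch 1, and 6.36% ± 0.195 in fast and 6.84% ± 0.173 in parental cells of batch 2 (SD, n = 3 libraries each), with no overlap of libraries in either batch. The shares are descriptions, and with shares of a sum a larger share of ITGA2 lowers those of the other chains.

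The main partner of these chains, ITGB1, moved the other way by a small amount. It stood at 1125 CPM in fast cells and 1282 CPM in parental cells, a log2 fold change of -0.19 ± 0.02 over both batches (edgeR adjusted p = 5.88e-09). Per length, the sum of the 10 chains was 1.32 ± 0.0271 times ITGB1 in fast cells and 0.944 ± 0.0221 times in parental cells of batch 1 (SD, n = 3 libraries each). In batch 2 the ratio was 1.18 ± 0.00504 in fast cells and 0.772 ± 0.0109 in parental cells. The ratio was higher in each fast library than in each parental library of its batch. Its size rests on the exon lengths used. The sum includes ITGA6 and ITGAV, which also pair with other beta chains, so the ratio does not weigh alpha against all beta chains.

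Among the other beta chains, 3 rose and 2 fell. ITGB4, the partner of ITGA6 at hemidesmosomes, stood at 182 CPM in fast cells and 55.6 CPM in parental cells, a rise of 1.74 ± 0.07 on the log2 scale. Like ITGA6, ITGB4 rose by more in batch 2, with a difference between batches of 0.36 ± 0.06 (edgeR adjusted p = 4.73e-05). ITGB3, a partner of ITGAV, rose by 2.07 ± 0.07, with 16.0 CPM in fast cells and 3.77 CPM in parental cells. A further row with the same symbol and another gene identifier rose by 2.01 ± 0.08, and how reads were divided between these 2 rows is uncertain. ITGB5 and ITGB8, also partners of ITGAV, fell, to 63.5 CPM in fast cells against 87.3 CPM in parental cells for ITGB5 and 2.06 against 3.83 CPM for ITGB8. ITGB2, the beta chain of leukocyte integrins, rose by 1.97 ± 0.04, at 56.3 CPM in fast cells against 14.4 CPM in parental cells. ITGB6 and ITGB7 were under 1 CPM and not called, so that of the 8 beta chains 3 rose, 3 fell and 2 were not called over both batches, beside 31.9% of all genes higher and 31.5% lower.

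The alpha chains that pair with ITGB2 were nearly absent. Of the 8 leukocyte markers examined, 6 had at most 35 counts over either population, CD14 was not called and CSF1R fell. ITGAL had 0 counts over the fast libraries and 10 over the parental ones, ITGAM 1 and 35, ITGAX 0 and 2, and ITGAD 0 and 2, none of which passed the filter. ITGAE, which pairs with ITGB7, had 28.0 CPM in fast cells, against 26.1 CPM in parental cells, a log2 fold change of 0.10 ± 0.04 (edgeR adjusted p = 0.0299) that was not called in batch 2 (edgeR adjusted p = 0.406). ITGA2B, the platelet chain, and ITGA9 were tested and not called (edgeR adjusted p = 0.842 and 0.0903 over both batches), and ITGA8 had 16 counts over the fast libraries and 18 over the parental ones.

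**Figure D4:**
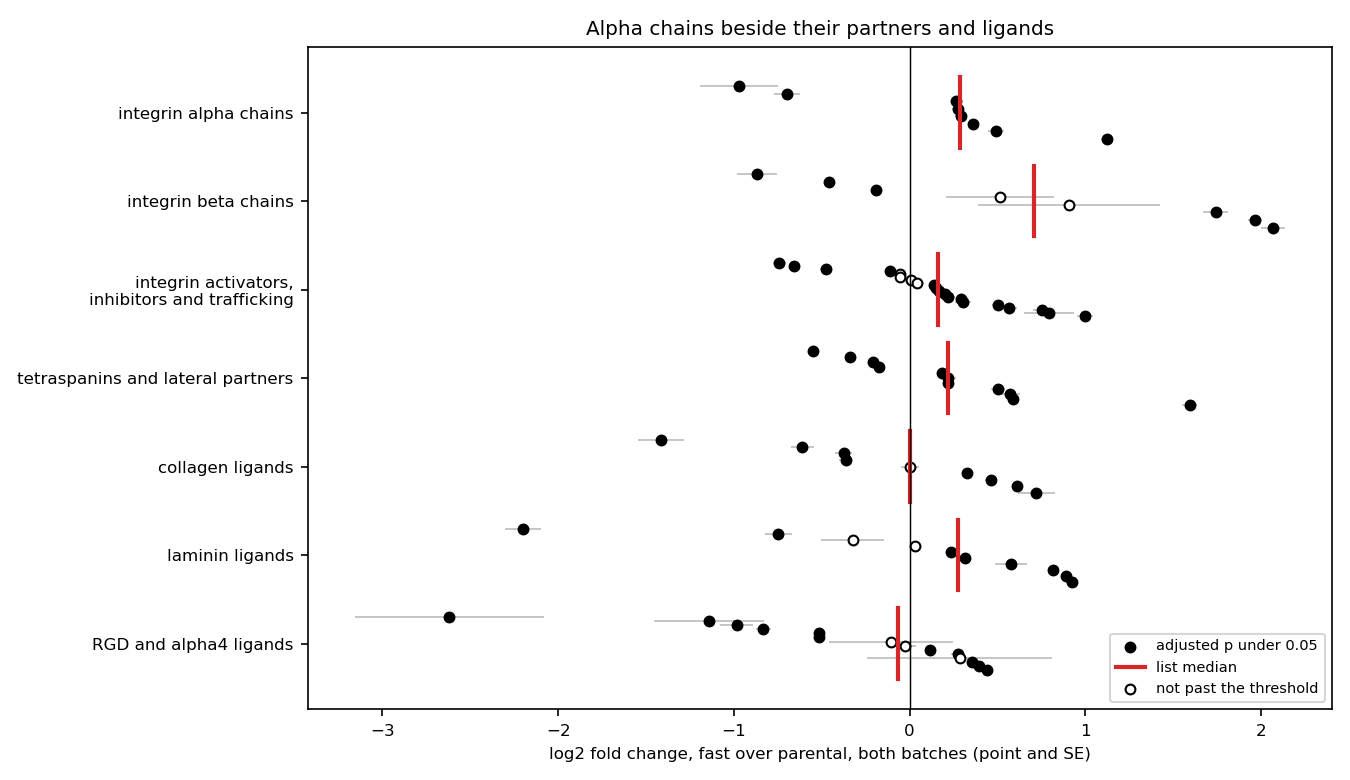
Log2 fold change over both batches, fast over parental, of the tested genes in lists of integrin partners and ligands; each point is 1 gene with its standard error, filled where the adjusted p was under 0.05 and open where it was not, and each red line is the median of its list. The alpha chains are in the top row. The lists of partners spread to both sides of 0, with ITGB2, ITGB3 and ITGB4 at the high end.

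Ligands of these receptors moved in both directions. Of 10 laminin genes tested, 6 rose, 2 fell and 2 were not called over both batches, with a median log2 fold change of 0.28. LAMB1, a laminin beta chain, rose by 0.89 ± 0.03, and LAMA5, a laminin alpha chain of basement membranes, by 0.82 ± 0.03. Of 9 collagen genes, 4 rose, 4 fell and 1 was not called (median 0.00). COL13A1, a transmembrane collagen, rose by 0.61 ± 0.03, while COL6A3 changed by -1.41 ± 0.13 and COL1A1, the main fibrillar collagen, by -0.61 ± 0.06. The other collagen VI genes listed, COL6A1 and COL6A2, named after their values were seen, rose by 0.46 ± 0.03 and 0.33 ± 0.03. Of 14 genes listed as ligands of the Arg-Gly-Asp-binding chains or of ITGA4, 5 rose, 6 fell and 3 were not called (median -0.07). Over all genes tested, 31.9% were called higher and 31.5% lower. FN1, fibronectin itself, changed by -0.98 ± 0.09, the latent TGF-beta binding protein LTBP1 by -0.83 ± 0.04 and thrombospondin THBS1 by -0.51 ± 0.03. Some of these changes differed between batches. COL6A3 changed by -1.80 ± 0.04 in batch 1 and -1.04 ± 0.04 in batch 2 (edgeR adjusted p of the difference = 2.52e-13), and FN1 by -1.26 ± 0.03 and -0.70 ± 0.03 (edgeR adjusted p = 8.80e-12). COL5A1, the collagen not called over both batches and named after its values were seen, was called lower in batch 1 (-0.18 ± 0.04) and higher in batch 2 (0.18 ± 0.04), with an edgeR adjusted p of 7.23e-06 for the difference. Thus ITGA5 rose while the transcript of its ligand fibronectin fell, at 104 CPM in fast cells and 215 CPM in parental cells.

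Among 20 tested genes of integrin activation, inhibition and trafficking, 12 rose, 4 fell and 4 were not called (median 0.16). DAB2, an endocytic adaptor of integrins, rose by 0.999 ± 0.047, RASSF5, a RAP1 effector, by 0.76 ± 0.05, and FERMT1, a kindlin that activates integrins, changed by -0.74 ± 0.04. Among 11 tetraspanins and other lateral partners, 7 rose and 4 fell (median 0.22). The tetraspanin CD82 rose by 1.59 ± 0.04, CD63 by 0.59 ± 0.03, and SLC3A2, which binds beta chains, by 0.57 ± 0.06. The 4 that fell, named after their values were seen, were all tetraspanins. They were CD151 (-0.55 ± 0.03), CD81 (-0.34 ± 0.03), CD9 (-0.21 ± 0.03) and TSPAN4 (-0.17 ± 0.03). For comparison, 31.9% of all genes were called higher and 31.5% lower, with a median of 0.01.

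The genes along the chromosome beside the chains moved to different extents. For ITGA2 on chromosome 5, the 20 nearest tested genes of at least 1 CPM, 10 on each side, had a median log2 fold change of 0.33 over both batches, with 16 called higher and 1 lower, where 31.9% of all genes were called higher and 31.5% lower. None of these 20 exceeded ITGA2. The window of 20 around ITGA1 shares most of its genes with that of ITGA2 and gave the same median and counts, and 6 of its genes exceeded ITGA1. PELO, the 1 protein-coding gene that starts between the starts of ITGA1 and ITGA2, rose by 0.76 ± 0.04, more than ITGA1. Its exons overlap those of ITGA1 in part, so that these values are not fully separate. With 5 genes on each side, the median was 0.57 for ITGA2, with 10 of 10 called higher, and 0.47 for ITGA1, with 9 of 10. For ITGA10 on chromosome 1, the 20 neighbours had a median of -0.37, with 3 called higher and 14 lower, and 15 of the 20 lay above ITGA10. Around the low chain ITGA7 on chromosome 12 the median was 0.09 and all 20 neighbours lay above it. Most of these genes also lie in the window of ITGA5, and the windows of ITGA4 and ITGAV share genes too. Medians were 0.24 around ITGA6, 0.16 around ITGA3, 0.13 around ITGA5, 0.12 around ITGAV and around ITGA4, and 0.02 around ITGA11, beside 0.01 over all genes. The window of ITGA6 holds 3 antisense genes whose exons overlap its own, with 0.30 ± 0.05, 0.24 ± 0.05 and 0.29 ± 0.07. The windows of ITGA5 and ITGAV each hold 1 such gene. The strand setting of the counting is not stated, and whether these genes hold reads of the chains was not tested. With 5 genes on each side, the median around ITGA3 was -0.00, with 3 called higher and 3 lower, where the wider window had 11 and 4, and around ITGA11 it was 0.09.

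The gene with a mean of at least 5 CPM whose log2 CPM followed each tested chain most closely over the 12 libraries was sought among 11254 genes. It was CYBRD1 for ITGA2 (Pearson r = 0.993), CLMP for ITGA1 (0.990), LPCAT1 for ITGA10 (0.992) and COL18A1 for ITGA3 (0.996). It was KDELC2 for ITGA6 (0.994), USP28 for ITGA7 (0.982), JOSD1 for ITGA5 (0.996) and EDIL3 for ITGAV (0.989). No 2 chains shared a closest gene. The 12 libraries fall into the same 4 groups for every gene, so these values describe the shared differences of population and batch.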

How the data were processed

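RNA from fast and parental MDA-MB-231 cells was measured in 12 libraries. The authors deposited raw, unnormalized read counts per gene. Per the submitters' processing notes, Trimmomatic 0.32, STAR 2.3.0e and featureCounts 1.4.4 were used with hg19 and GRCh37. Their strand and multiple-match settings are not given in the sources used here.

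Counts were fitted with edgeR 4.0.16 (R 4.3.3): TMM scaling, the default low-count filter (minimum count 10, minimum total 15), a robust quasi-likelihood fit and Benjamini-Hochberg adjustment over 22668 genes, threshold 0.05. Effects within batches, and their difference, came from 4 group means, and a model with batch as an additive term gave the effect over both. The steps were tested on simulated counts. Alternatives were other scalings and filters, DESeq2 1.42.0, limma 3.58.1, left-out libraries, other fits and halved counts, the last added after even counts were seen to be in excess. Libraries of 1 group differed beyond counting noise (index of dispersion 3.41 to 8.78). Poisson intervals cover counting error only.

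GENCODE release 29 (GRCh38, another build than the counts) was matched by gene ID for chromosome, gene order and exon length, and its coordinates are not given. The chains and gene lists were chosen with earlier results of these data known. Named are all 10 chains, every beta and other alpha chain, up to 3 genes of each further list with the largest change called the same way in both batches at 5 CPM or more, and the closest-following gene of each chain. Some cell type markers are named beside these, as are PELO, COL5A1, COL6A1, COL6A2 and the tetraspanins that fell, which were chosen after their values were seen. Some genes that the rule names are left out here.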

Additional observations from a re-analysis of the deposited data

Results flagged for a closer look

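The difference between fast and parental cells in the laminin receptor chains ITGA3 and ITGA6 was not the same in the 2 batches, by the test of the difference itself. For ITGA3 the log2 fold change was 0.35 ± 0.03 in batch 2 and 0.18 ± 0.03 in batch 1, a difference of 0.18 (edgeR adjusted p = 0.00342). For ITGA6 it was 0.41 ± 0.03 in batch 2 and 0.18 ± 0.03 in batch 1, a difference of 0.24 (edgeR adjusted p = 0.000201). Both chains were higher in all 3 fast libraries than in all 3 parental libraries of each batch, and both differences were called in all 20 settings tried. The fall of level in batch 2 relative to batch 1 was smaller in fast cells than in parental cells for both, with a ratio of 0.846 in fast and 0.749 in parental cells for ITGA3 and of 0.862 and 0.731 for ITGA6.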

How the results depend on the processing

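The number of chains called was 8 in batch 1, 7 in batch 2, 8 over both batches and 2 for the difference between batches with RLE size factors, library totals, no filter, DESeq2, limma-voom, halved counts and each of the 12 libraries left out. When only genes averaging 1 CPM were kept, ITGA7 was not tested and the counts were 7, 7, 7 and 2. Without a batch term 6 chains were called over both batches, the calls of ITGA1 (log2 fold change 0.47) and ITGA10 (-0.67) being lost (edgeR adjusted p = 0.0832 each). On sums of the 3 libraries of each group 8 were called. No log2 fold change of a tested chain changed sign under any alternative. ITGA7 in batch 2 was not called in any of 20 settings (adjusted p 0.0610 to 0.236). The share of ITGA3 moved to 50.4% in fast and 53.6% in parental cells on plain CPM. Same-numbered libraries of a batch did not deviate together (correlations -0.0763 to 0.0740), so the numbers were not taken as pairs. These are the numbers of the sample titles, and in batch 1 the table's columns are numbered otherwise, with 1, 2 and 4 for fast and 1, 3 and 4 for parental libraries. With the replicate number as a replicate block the chains called were again 8, 7, 8 and 2, and over all genes 332 were higher and 648 lower for the difference between batches, against 396 and 827 without the block. Depth limits ITGA4, ITGA11 and ITGA7, for which a change of the size seen in ITGA3 was not detectable.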
